A study of Drosophila melanogaster with 4 samples.

Results

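The genes described here make, package, recapture and sense the monoamine transmitters of the *Drosophila* brain. They are *ple*, *Ddc*, *Trh*, *Tdc2* and *Tbh* for synthesis, *Vmat*, *DAT* and *SerT* for transport, and *Dop1R1* and *Dop2R* for dopamine reception. They were chosen by name, though with earlier results of these data known. All 10 had a row among the 23932 features of the count files, of which 17869 carry FlyBase gene identifiers. *Trh* is listed in the current annotation as *Trhn* and was matched by its identifier, FBgn0035187. All 10 also passed the filter on low counts, which kept 13082 features.

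The data come from whole brains of wandering larvae of the last larval instar (WL3). In every sample *insc*-GAL4, which is active in neuroblasts and their progeny, drove an RNAi hairpin. The hairpin was directed against *white*, an eye color gene that serves as the control, or against *orb2*, which encodes an RNA-binding protein. Each label has 2 libraries, and each library is a pool of 60 brains, so values of single animals cannot be seen and cells outside the driver's lineages are included.

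Dopamine is made from tyrosine in 2 steps. Tyrosine hydroxylase, encoded by *ple*, makes L-DOPA, and dopa decarboxylase, encoded by *Ddc*, turns it into dopamine. Serotonin is made from tryptophan by the hydroxylase *Trh* and then by the same decarboxylase, while *Tdc2* makes tyramine from tyrosine and *Tbh* turns tyramine into octopamine. *Vmat* loads all of these amines into synaptic vesicles, and *DAT* and *SerT* return dopamine and serotonin to the cell that released them. *Dop1R1* and *Dop2R* are G protein-coupled receptors of the D1 and D2 type, which raise and lower cyclic AMP. In the larval brain these amines are made by small sets of identified neurons, and *ple* and *Ddc* also act in the epidermis, where dopamine feeds the hardening and coloring of cuticle.

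None of the 10 genes passed the test for a difference between the labels, and the *white*-labelled libraries differed widely from each other. For *ple*, *Tdc2*, *Vmat*, *Dop1R1* and *Dop2R* they enclosed both *orb2*-labelled libraries. The 4 enzymes *ple*, *Ddc*, *Trh* and *Tdc2* had their lowest level in *white*-labelled replicate 1. The other 6 genes, which are *Tbh*, the 3 transporters and both receptors, had their lowest level in *white*-labelled replicate 2. Over all tested features, 30.8% were lowest in that replicate 1 and 41.0% in that replicate 2. No member was lowest in an *orb2*-labelled library, where 15.2% of features were lowest in replicate 1 and 13.1% in replicate 2.

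Several facts of the whole series bear on these values. Totals ran from 34610836 to 75412298 counts per library, and the shallowest was *white*-labelled replicate 2. *orb2* itself was higher in the *orb2*-labelled libraries (105.3 and 53.6 CPM, or counts relative to library size after TMM scaling) than in the *white*-labelled ones (17.1 and 15.3 CPM). *white* was at 111 and 185 CPM under its own label and at 121 and 93.8 CPM under the other. Libraries are therefore named by their labels, as *white*-labelled and *orb2*-labelled. The spread between libraries, as the scaled median absolute deviation of log2 ratios over features, was 0.972 between the *white*-labelled ones and 0.365 between the *orb2*-labelled ones. Levels relative to the mean of the 4 libraries went down with exon length in *white*-labelled replicate 2 (Spearman's rho -0.287 across features) and up in replicate 1 (0.244). In *orb2*-labelled replicates 1 and 2 rho was 0.161 and 0.002. The 13 neuron markers were detected in all libraries, with summed levels of 5038 and 2731 CPM in *white*-labelled replicates 1 and 2 and of 4108 and 3608 CPM in the *orb2*-labelled ones. Nothing in the labels says that the 2 replicates of a label came from separate crosses, so p-values measure the spread between these pools only, and with pooled tissue fewer cells of a type and less RNA per cell cannot be told apart.

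**Figure D1:**
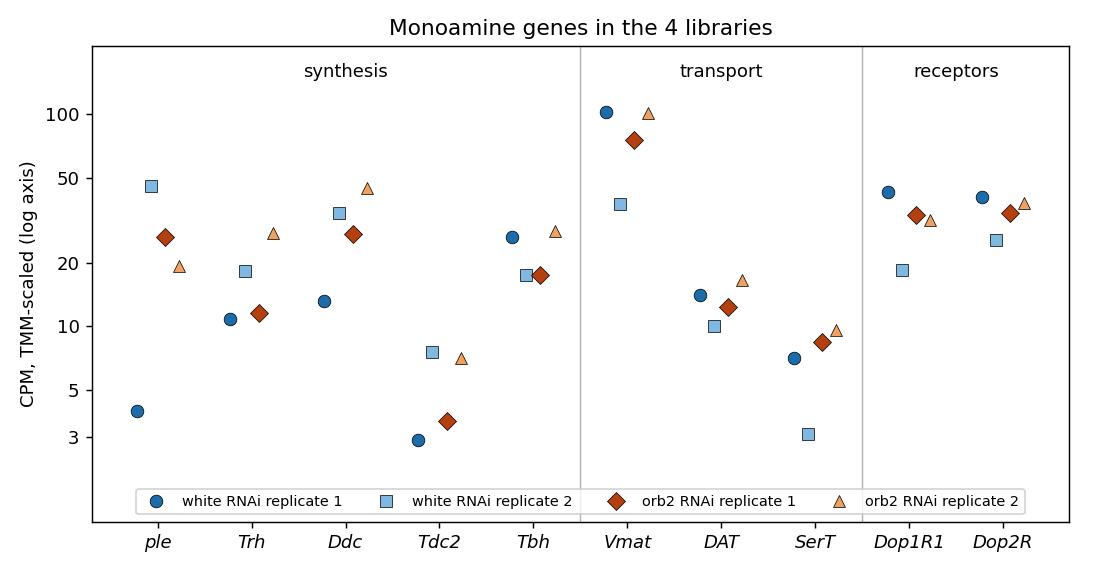
Level of each of the 10 genes in the 4 libraries, in TMM-scaled CPM on a log axis, grouped by role, with 1 point per library. The widest range is that of *ple*, from 3.996 CPM in *white*-labelled replicate 1 to 46.1 CPM in replicate 2 of that label, and *SerT* is higher in each *orb2*-labelled library than in each *white*-labelled library.

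*ple* (FBgn0005626, chromosome 3L, 6713356 to 6719525, minus strand, with this and all later positions from the BDGP6.54 annotation) sets the rate of dopamine synthesis. It was at 3.996 and 46.1 CPM in *white*-labelled replicates 1 and 2 and at 26.2 and 19.3 CPM in the *orb2*-labelled ones. The libraries of the control label thus differed 11.5-fold and enclosed both of the others, which differed 1.36-fold. Its 250 counts in *white*-labelled replicate 1 have an exact 95% Poisson interval of 220 to 283, which covers counting error only. The log2 fold change, *orb2*-labelled libraries over the *white*-labelled ones, was -0.14 with a standard error of 1.08 (adjusted p = 0.9998 by the quasi-likelihood test of edgeR, Benjamini-Hochberg over all features), the largest standard error of the 10. It was -1.004 without *white*-labelled replicate 1, 2.51 without replicate 2 of that label and 0.081 without *orb2*-labelled replicate 2.

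*Ddc* (FBgn0000422, chromosome 2L, 19116483 to 19120306, minus strand) acts after *ple* and after *Trh*. It was at 13.1 and 34.2 CPM in *white*-labelled replicates 1 and 2 and at 27.2 and 44.9 CPM in the *orb2*-labelled ones. As for *ple*, *white*-labelled replicate 1 was lowest, and the other 3 libraries lay within 1.65-fold of each other. The log2 fold change was 0.61 (standard error 0.548), within the spread between replicates, and it ran from 0.086 without *white*-labelled replicate 1 to 1.45 without replicate 2. *CG10561*, on the opposite strand, shares 3.15% of its exon bases.

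*Trh* (FBgn0035187, chromosome 3L, 1190384 to 1193173, minus strand), the tryptophan hydroxylase of serotonin neurons, was at 10.8 and 18.1 CPM in *white*-labelled replicates 1 and 2 and at 11.5 and 27.5 CPM in the *orb2*-labelled ones. Both replicates 1 were low and both replicates 2 were high. *CG13912*, on the opposite strand, shares 4.08% of the exon bases of *Trh*. *Tdc2* (FBgn0050446, chromosome 2R, 6684745 to 6689974, minus strand), the neuronal tyrosine decarboxylase, was also low in both replicates 1 and high in both replicates 2, at 2.91 and 7.56 CPM under the *white* label and 3.58 and 7.08 CPM under the *orb2* label. The log2 fold change was 0.43 (standard error 0.535) for *Trh* and 0.028 (standard error 0.690) for *Tdc2*. Without *orb2*-labelled replicate 2 they were -0.32 and -0.53, and that of *Tdc2* was also negative, -0.49, without *white*-labelled replicate 1. The summed level of 7 glial markers was likewise lower in both replicates 1, at 766 and 1321 CPM in *white*-labelled replicates 1 and 2 and at 831 and 1174 CPM in the *orb2*-labelled ones. This did not hold for each marker, since *moody* was at 39.5 and 27.4 CPM and then at 37.1 and 41.4 CPM, and *repo* at 86.0 and 95.4 CPM and then at 99.9 and 104 CPM. None of the 7 was at 0. *Ddc* and the GABA enzyme *Gad1* were also lower in both replicates 1, with *Gad1* at 68.8 and 111 CPM and then at 71.7 and 141 CPM. The summed level of the 13 neuron markers was instead higher in both replicates 1. The part of glia in the levels of *Trh* and *Tdc2* was not tested.

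*Tbh* (FBgn0010329, chromosome X, 7995697 to 8027394, plus strand), which makes octopamine from the product of *Tdc2*, did not separate by replicate number. It was at 26.4 and 17.4 CPM in *white*-labelled replicates 1 and 2 and at 17.4 and 28.2 CPM in the *orb2*-labelled ones. Replicate 1 of the *white* label and replicate 2 of the *orb2* label were high and the others low, so the labels overlapped in full, and the log2 fold change was 0.059 (standard error 0.375). It was -0.21 without *white*-labelled replicate 2 and -0.32 without *orb2*-labelled replicate 2.

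**Figure D2:**
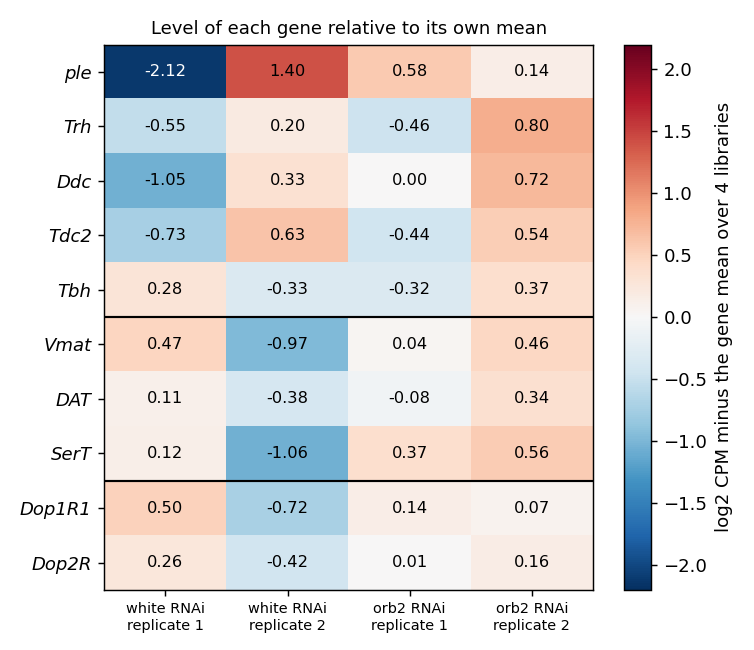
Each cell gives the log2 CPM of a gene in a library minus the mean of that gene over the 4 libraries, with lines between synthesis, transport and receptor genes. In *white*-labelled replicate 2 the 3 transporters and 2 receptors lie between -1.06 and -0.38 while *ple*, *Trh*, *Ddc* and *Tdc2* lie between 0.20 and 1.397.

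*Vmat* (FBgn0260964, chromosome 2R, 13513132 to 13534251, minus strand) had the highest CPM of the 10 genes in 3 of the 4 libraries. It was at 102.1 and 37.8 CPM in *white*-labelled replicates 1 and 2 and at 75.8 and 101.9 CPM in the *orb2*-labelled ones. Replicate 2 labelled *white* RNAi was low and the other 3 libraries were close, as for the receptors. The log2 fold change was 0.34 (standard error 0.517), 1.24 without *white*-labelled replicate 1 and -0.20 without replicate 2 of that label. Its exons share 26.2% of their bases with *CG13330* on the opposite strand. *CG13330* was counted 0 times in every library, and since the use of strand in the counting is not stated, the count of *Vmat* over those bases is uncertain.

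*DAT* (FBgn0034136, chromosome 2R, 16558567 to 16565238, minus strand), the dopamine transporter of the cell membrane, was at 14.1 and 10.03 CPM in *white*-labelled replicates 1 and 2 and at 12.3 and 16.6 CPM in the *orb2*-labelled ones. It varied 1.65-fold over the 4 libraries, near *Tbh* (1.62-fold) and *Dop2R* (1.60-fold), while *ple* varied 11.5-fold. The part of epidermis, where *ple* also acts, in that contrast was not tested. The log2 fold change of *DAT* was 0.26 (standard error 0.347) and ran from 0.034 to 0.54 with each library left out. It was lowest without *white*-labelled replicate 2 and highest without replicate 1 of that label.

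*SerT* (FBgn0010414, chromosome 2R, 24404595 to 24411074, minus strand), the serotonin transporter, was at 7.08 and 3.11 CPM in *white*-labelled replicates 1 and 2 and at 8.43 and 9.62 CPM in the *orb2*-labelled ones. It was the only member of the 10 whose groups did not overlap, and 18.5% of all tested features also had the *orb2*-labelled libraries above the *white*-labelled ones. Its log2 fold change of 0.82 (standard error 0.536, unadjusted p = 0.191, adjusted p = 0.9998, edgeR's quasi-likelihood test) was the largest of the 10 and did not pass the test. It was 1.55 without *white*-labelled replicate 1 and 0.35 without replicate 2 of that label. The summed level of 9 muscle markers also separated by label, at 139 and 331 CPM against 698 and 638 CPM, although *Mlc2* overlapped. None of the 9 was at 0. That of 6 eye disc markers was at 208 and 258 CPM against 286 and 315 CPM, although *boss* went the other way and *eya* overlapped. The sum of 7 ring gland markers was at 714 and 934 CPM against 587 and 645 CPM, although *dib*, *sro* and *Akh* overlapped. The sum of 7 cuticle markers separated too, at 238 and 231 CPM against 490 and 610 CPM, although *Lcp3*, *Lcp9* and *Cpr49Ac* overlapped. The sum of 6 salivary gland markers, of which 3 separated, overlapped at 37.1 and 161 CPM against 127 and 1305 CPM. Those of 6 fat body markers (4336 and 270 CPM against 544 and 2568 CPM) and 5 hemocyte markers (323 and 524 CPM against 462 and 337 CPM) overlapped too. The part of such tissues in the level of *SerT* was not tested. The lowest count of *SerT*, 102 in *white*-labelled replicate 2, has an exact Poisson interval of 83.2 to 124.

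*Dop1R1* (FBgn0011582, chromosome 3R, 14165379 to 14214810, minus strand), a D1-type receptor needed for learning, was at 42.8 and 18.4 CPM in *white*-labelled replicates 1 and 2 and at 33.4 and 31.7 CPM in the *orb2*-labelled ones. *Dop2R* (FBgn0053517, chromosome X, 20004680 to 20062706, minus strand), a D2-type receptor that also acts as an autoreceptor on dopamine neurons, was at 40.8 and 25.5 CPM and at 34.4 and 38.2 CPM in the same order. For both, replicate 1 of the *white* label was highest, replicate 2 was lowest and the *orb2*-labelled libraries lay between them, 1.05-fold apart for *Dop1R1* and 1.11-fold for *Dop2R*. The log2 fold changes were 0.089 (standard error 0.445) and 0.13 (standard error 0.304). Without *white*-labelled replicate 2 they were -0.39 and -0.17, and without replicate 1 they were 0.84 and 0.52.

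Over all 10 members, edgeR's test called 0 genes, where a call needed an adjusted p below 0.05 and a log2 fold change beyond 0.5 in size, and it called 0.0% of the 13082 features in either direction. With an unadjusted p under 0.05 it also gave 0 members, against 4.57% of features (598), of which 3.68% of all were higher and 0.894% lower under the *orb2* label. With the replicate number as a block it was 1 member, *Ddc*, higher, against 4.4% of features. The fold changes of *Trh* and *Tbh* moved most when *orb2*-labelled replicate 2 was left out, both to -0.32. Those of the other members moved most when a *white*-labelled library was left out. Without *white*-labelled replicate 1 the fold changes of the members ran from -1.004 for *ple* to 1.55 for *SerT*. Without replicate 2 they ran from -0.39 for *Dop1R1* to 2.51 for *ple*, so *ple* took opposite directions. Such fits take their spread from the *orb2*-labelled pair alone, so their p-values are not given. DESeq2 without shrinkage called 0 members and 0.657% of features (86), 0.497% higher and 0.161% lower. With its prior on fold changes it called 0 members and 0.237% of features (31), 0.206% higher and 0.0306% lower. The median log2 fold change of the members was 0.19, against 0.022 over all features. It was above 0 for 9 of the 10 members, with *ple* as the exception, and for 52.5% of all features, but with length trends taken out *Tdc2*, *Tbh*, *Dop1R1* and *Dop2R* were below 0. Set against the neuron markers of each library, an alternative added after seeing the data, *DAT* was also below 0 with these 4, *ple* was above 0, and the median was -0.027. Beyond this, 8 of the 10 members differed more between the *white*-labelled libraries than between the *orb2*-labelled ones, as did 75.6% of features. The *white*-labelled libraries differed more than 2-fold for 6 of the 10 members and for 34.1% of features. The *orb2*-labelled ones differed more than 2-fold for 1 member, *Trh*, and for 14.6% of features.

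**Figure D3:**
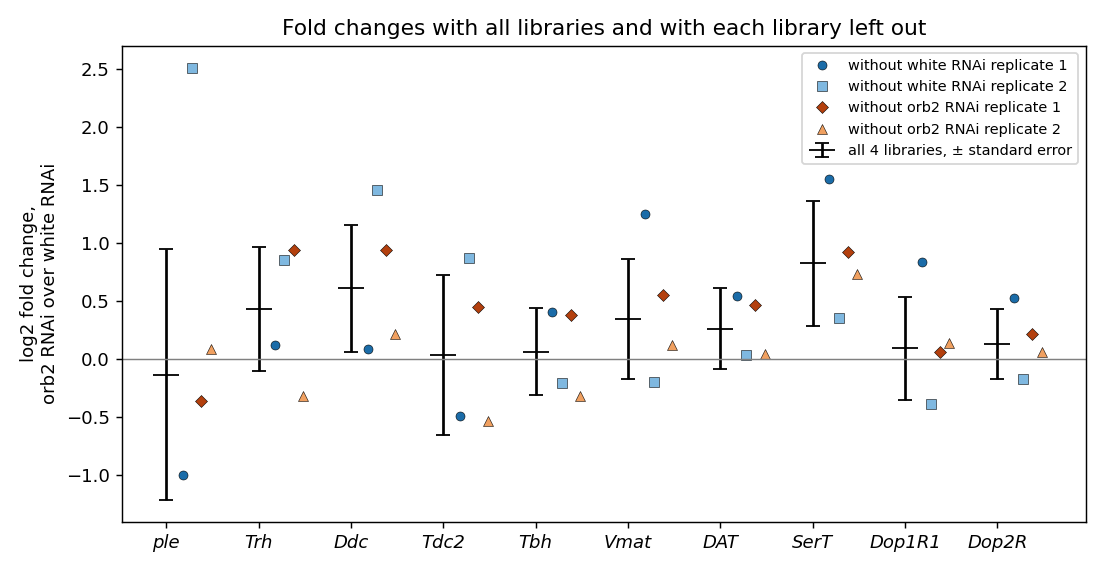
Log2 fold change of each gene, *orb2*-labelled libraries over the *white*-labelled ones, as a black dash with its standard error over all 4 libraries, and as colored points with each library left out. Leaving out *white*-labelled replicate 2 moved *ple* from -0.14 to 2.51 and *Vmat* from 0.34 to -0.20, and leaving out replicate 1 moved *SerT* from 0.82 to 1.55.

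Levels can be compared between genes only per length, so CPM were divided by the kilobases of annotated exon (RPKM). All annotated exon bases were used, such as 14565 for *Dop1R1*, whose longest 3' UTR has 12541. Which of these bases the transcripts in these brains held was not tested. Over the 4 libraries *Ddc* had the highest mean, 10.7 ± 4.76 RPKM (SD, n = 4, both labels), followed by *Vmat* at 9.76 ± 3.73, *Trh* at 7.78 ± 3.55, *ple* at 6.28 ± 4.60, *Tbh* at 5.78 ± 1.49, *Dop2R* at 5.32 ± 1.02 and *DAT* at 4.36 ± 0.907 RPKM. The lowest were *Tdc2* at 2.29 ± 1.03, *Dop1R1* at 2.17 ± 0.690 and *SerT* at 1.90 ± 0.759 RPKM. Of the 9 neighbors in this order, the log2 difference exceeded its SD over libraries for 2, *Dop2R* over *DAT* and *DAT* over *Tdc2*, and these kept their order in 4 of 4 libraries. The others did not differ beyond that spread. The place of *ple* moved most, from rank 10 in *white*-labelled replicate 1 to rank 2 in replicate 2, with ranks 3 and 7 in the *orb2*-labelled ones. *Ddc* had rank 1 in 3 libraries and rank 5 in *white*-labelled replicate 1, and *SerT* had ranks 8 to 10.

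Ratios of members in the same library do not depend on how libraries are scaled. They compare members over all cells of a pool, and *ple* and *Ddc* also act in epidermis. Trends with exon length, which differed between libraries, do not cancel between genes of unlike length, such as *SerT* (3725 exon bases) and *Trh* (2183). The part of these trends in the ratios was not tested. *DAT* over *ple*, per kilobase, was 4.42 and 0.272 in *white*-labelled replicates 1 and 2 and 0.589 and 1.07 in the *orb2*-labelled ones. *SerT* over *Trh* was 0.384 and 0.1005 under the *white* label and 0.429 and 0.205 under the *orb2* label. *ple* over *Ddc*, the enzymes of consecutive steps, was 0.224 and 0.990 in the former and 0.708 and 0.316 in the latter. Each of these ratios differed more between the libraries of the *white* label than between the labels. *Tbh* over *Tdc2* was 5.41 and 1.37, then 2.90 and 2.37, and *Trh* over *ple* was 4.71 and 0.686, then 0.764 and 2.49. *Dop1R1* over *Dop2R* was steadier, from 0.323 to 0.470 over the 4 libraries, a log2 range of 0.54, where the ranges of the other 5 ratios ran from 1.98 to 4.02. Exact two-sided permutation tests of the 6 ratios gave p from 0.667 to 1.0, and 1.0 after adjustment for all 6. With 2 libraries a label, the smallest p this test allows is 0.333.

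The neuron markers differed between the libraries, so the members were also set against the median of the 13 neuron markers in each library, an alternative chosen after seeing the data. That median was 8.36 and 7.11 log2 CPM in *white*-labelled replicates 1 and 2 and 8.01 and 8.13 in the *orb2*-labelled ones. On this scale the range over libraries narrowed for *Vmat* (1.43 to 0.41 log2 units), *SerT* (1.62 to 0.68), *Dop1R1* (1.22 to 0.23) and *Dop2R* (0.68 to 0.58). It widened for the other 6, among them *ple* (3.52 to 4.77), *Ddc* (1.77 to 2.63) and *Tdc2* (1.37 to 2.62). The neuron markers hold from 3684 exon bases (*Gad1*) to 23308 (*futsch*). Members that narrowed hold from 3725 (*SerT*) to 14565 (*Dop1R1*), and those that widened from 2183 (*Trh*) to 3868 (*Tbh*). The part of exon length in these changes of range was not tested. *SerT* lay at -5.53 and -5.46 log2 units under the *white* label and at -4.93 and -4.85 under the *orb2* label, a difference of 0.60 with SDs of 0.054 and 0.055 (n = 2 each). *Dop1R1* lay at -2.94 and -2.91 and then at -2.95 and -3.14. These were the only 2 members whose labels did not overlap, in opposite directions, against 9.27% of all features with both *orb2*-labelled libraries above and 9.14% with both below. An exact permutation test of 2 libraries against 2 cannot pass 0.05, so none is given.

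**Figure D4:**
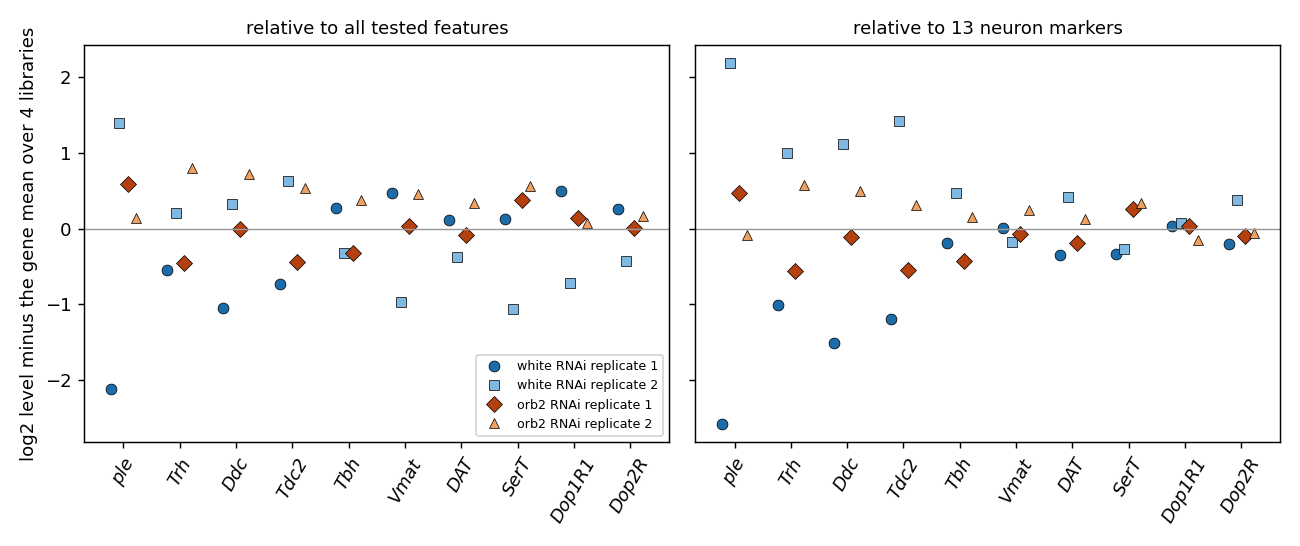
Level of each gene minus its own mean over the 4 libraries, in log2 units, relative to all tested features (left) and relative to the median of 13 neuron markers in the same library (right). The 4 points of *Vmat* and *Dop1R1* come together on the right, with ranges of 0.41 and 0.23, while those of *ple*, *Ddc*, *Trh* and *Tdc2* spread further.

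Most other receptors of these amines had their lowest level in the same library as *Dop1R1* and *Dop2R*. The list holds 15 receptors for dopamine, serotonin, octopamine and tyramine, and all 15 were tested. Replicate 2 labelled *white* RNAi was lowest for 12 of them, where 41.0% of all features were lowest in that library, and replicate 1 of that label for 0. The widest gap was that of *5-HT7*, a serotonin receptor coupled to cyclic AMP, at 26.9 and 3.69 CPM in *white*-labelled replicates 1 and 2 and 15.8 and 12.97 CPM in the *orb2*-labelled ones. *Oct-TyrR*, which binds octopamine and tyramine, was at 21.3 and 3.05 CPM and then at 14.1 and 14.1 CPM. Of the 15, 13 were lower in that replicate 2 than in that replicate 1, the exceptions being *Octbeta2R* and *TyrRII*. The latter, a tyramine receptor, was at 4.17 and 8.45 CPM and then 4.74 and 3.39 CPM. Per length *DopEcR*, which responds to dopamine and ecdysteroids, had the highest mean of the 15, at 16.0 RPKM. The log2 fold changes ran from -0.63 for *TyrRII* to 0.56 for *Octbeta3R*, with a median of 0.13. edgeR's test called 0 of the 15, 0 had an unadjusted p under 0.05, and DESeq2 without shrinkage called 0. The labels did not overlap, with the *orb2* label higher, for 3, *5-HT1A*, *Octbeta1R* and *Octbeta3R*, which is near the 18.5% of all features.

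**Figure D5:**
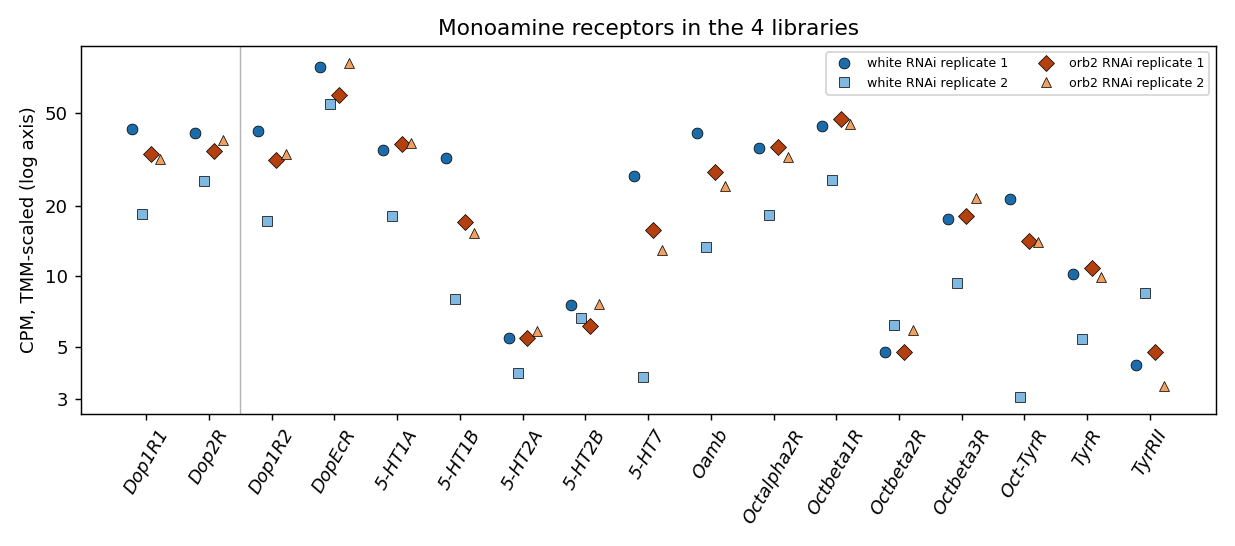
Level of *Dop1R1*, *Dop2R* and 15 other monoamine receptors in the 4 libraries, in TMM-scaled CPM on a log axis, with 1 point per library. Replicate 2 labelled *white* RNAi is lowest for *Dop1R1*, *Dop2R* and 12 of the other 15, with *5-HT7* at 3.69 CPM and *Oct-TyrR* at 3.05 CPM.

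The enzymes that make and recycle tetrahydrobiopterin, the cofactor of *ple* and *Trh*, did not share the low level of *ple* in *white*-labelled replicate 1 to a like extent. *Pu*, the GTP cyclohydrolase that starts its synthesis, was at 17.5 and 26.4 CPM in *white*-labelled replicates 1 and 2 and at 25.3 and 21.7 CPM in the *orb2*-labelled ones. This is the same order of libraries as for *ple*, over a narrower range. *Dhpr* had that order too, at 46.4 and 76.2 CPM and then at 60.7 and 52.6 CPM. *Sptr* was at 14.5 and 23.1 CPM and then at 22.7 and 24.5 CPM. Replicate 1 labelled *white* RNAi was thus lowest for 3 of the 7 genes in this list. *Catsup*, which holds tyrosine hydroxylase activity down, varied from 92.9 to 105.6 CPM. The list of 7 also holds *pr*, *Pcd* and *Hn*. The labels did not overlap, with the *orb2* label lower, for 2 of the 7, *pr* and *Pcd*, against 11.7% of all features. Of the 7, edgeR's test called 0, 0 had an unadjusted p under 0.05 in it, and DESeq2 called 0. *Hn*, the phenylalanine hydroxylase, had the highest log2 fold change of the list, 1.01 (standard error 1.48), at 5.95 and 0.335 CPM in the *white*-labelled libraries and 2.01 and 10.7 CPM in the *orb2*-labelled ones. *Pcd* had the lowest, -0.43 (standard error 0.211), and the highest mean per length, 63.7 RPKM.

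Genes of other transmitters were compared in the same libraries. The vesicular transporters *VAChT*, *VGlut* and *VGAT* were lowest in *white*-labelled replicate 2, as *Vmat* was, with log2 ratios of replicate 1 over replicate 2 of 1.16, 0.96 and 0.83 against 1.43 for *Vmat*. *Gad1*, the enzyme that makes GABA, had a log2 ratio of -0.69, on the side of *Trh* (-0.75), *Tdc2* (-1.38) and *Ddc* (-1.38), while the enzyme *Tbh*, at 0.60, lay on the side of the transporters. *ChAT*, the enzyme that makes acetylcholine, was at 0.098, and *ple* at -3.53 lay beyond them all. Replicate 2 labelled *white* RNAi was lowest for 7 of 9 GABA genes, 3 of 4 acetylcholine genes and 7 of 8 glutamate genes, beside 6 of the 10 monoamine genes. Their median log2 fold changes were 0.10, 0.25 and 0.053, and edgeR's test and DESeq2 called 0 of them. In edgeR's test 1 of them, the choline transporter *ChT*, had an unadjusted p under 0.05. Whether the monoamine genes differ from these lists was not tested.

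*ple* and *Ddc* are also used by epidermis, so the cuticle markers are given beside them. Of 7 such markers, 4 were at 0 counts in *white*-labelled replicate 1, 1 in replicate 2, and 0 in the *orb2*-labelled ones. Their summed level was 238 and 231 CPM under the *white* label and 490 and 610 CPM under the *orb2* label. Replicate 1 labelled *white* RNAi was lowest for 5 of the 6 tested, as it was for *ple* and *Ddc*, while *Cpr49Ac*, at 236 CPM, held nearly all of the sum there. *Lcp4*, a larval cuticle protein, was at 1.09 and 63.4 CPM and then at 157 and 295 CPM. *ple* was highest in *white*-labelled replicate 2. In that library *Lcp1*, *Lcp2* and *Lcp4* were below both *orb2*-labelled libraries. *Lcp3* (24.9 CPM), *Lcp9* (24.5 CPM) and *Cpr49Ac* (98.3 CPM) lay between the *orb2*-labelled ones there. The part of epidermis in the levels of *ple* and *Ddc* was not tested. Neuron markers were present in each library but not level, from 350 to 447 CPM for *nSyb* and from 230 to 713 CPM for *brp*, and 11 of the 13 were lowest in *white*-labelled replicate 2.

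The gene models of the members share features that the choice by name did not use. All 10 have more exon bases than the median tested protein-coding gene (2049 bases), from 2183 for *Trh* to 14565 for *Dop1R1*, and all 10 have a longer coding sequence than the median of 1350 bases. The longest annotated 3' UTR exceeds the median of 287 bases in 9 of the 10, with *Tdc2* at 227 as the exception. Among the members, the 3' UTR is 12541 bases in *Dop1R1*, 4936 in *Vmat* and 2339 in *Dop2R*, and 298 in *Ddc* and 432 in *Trh*. The 5 members with the fewest exon bases are *Trh*, *Tdc2*, *Ddc*, *DAT* and *SerT*, of which the first 3 were lowest in *white*-labelled replicate 1 and the last 2 in replicate 2 of that label. With each library's trend on exon length taken out, the log2 fold change of *ple* was -0.40, that of *SerT* 0.75 and that of *Ddc* 0.51, and no member was called.

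The features whose levels followed the members most closely were sought by the Euclidean distance of log2 CPM centred over the 4 libraries. For the mean of the 10 members the nearest of 11360 genes were *CG2059*, *vkg*, *CG7131*, *capu* and *cana*, at distances of 0.058 to 0.105. That mean profile is nearly flat, and 1725 genes lay within 0.5 of it. For *ple*, the member with the widest range, 7 genes lay within 0.5. The nearest were *CG13700*, *snoRNA:Psi28S-3091b*, *Ugt37D1*, *Obp50e* and *CG31104*, of which *Ugt37D1* had the highest level, at 0.384 and 3.995 CPM in *white*-labelled replicates 1 and 2 and 2.78 and 2.01 CPM in the *orb2*-labelled ones. With 4 libraries this likeness is a description, and the genes near *ple* were counted in low numbers.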

How the data were processed

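Brains of WL3 larvae were sequenced as 4 libraries, 2 per label, each from 60 brains. The authors trimmed reads with TrimGalore!, aligned them with HISAT2 on the BDGP6.32 genome and counted them with featureCounts, and they deposited these counts per feature without normalizing them. Strand, read pair and multiple alignment settings are not given in the sources used here, and the sources name 2 different TruSeq kits. All column headers name the same flow cell and lane.

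Samples were grouped by their titles. The analysis used edgeR 4.0.16 in R 4.3.3 (TMM, filterByExpr, quasi-likelihood test over 13082 features, no replicate block), and DESeq2 1.42.0 was an alternative. Log2 CPM used a prior count of 2, and standard errors were derived from the fold change and the F statistic. Libraries held 34610836 to 75412298 counts. The lowest count of a member was 102, so the spread between libraries limits precision more than depth does. Members, gene lists and tests were chosen with earlier results of these data known. All 10 members are named, with the extremes of the other lists, called genes and nearest profiles. *5-HT7*, *Oct-TyrR*, *Pu*, *Dhpr*, *Sptr*, *Catsup*, the single tissue markers and the genes of other transmitters were named after their values were seen. *AANAT1* of the pigment list was not analysed here. Gene positions come from the BDGP6.54 annotation, which is later than the authors' own. Alternatives were other tests, normalizations, filters and thresholds, a length correction (lowess span 0.3), a replicate block and each library left out, and, added after seeing the data, levels relative to neuron markers. Sequence features were not analysed here.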

Additional observations from a re-analysis of the deposited data

How the results depend on the processing

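No alternative called a member, and the median log2 fold change of the members ran from 0.070 to 0.46 with each library left out and from -0.027 to 0.30 under the others. Called features numbered 0 higher and 0 lower with edgeR, 65 and 21 with DESeq2 without shrinkage, 27 and 4 with its prior, and 0 to 91 and 0 to 51 with each library left out. With the replicate number as a block they numbered 62 and 11, *ple* was at 0.72, and *Ddc* had an unadjusted p of 0.047. The numbers pair the samples by number only, with deviations from the group means correlated at 0.183 across features. The upper quartile normalization moved *Tdc2* to -0.041. With length trends taken out, *Tdc2* was at -0.011, *Tbh* at -0.044, *Dop1R1* at -0.054 and *Dop2R* at -0.024, the cause of which was not tested. With each library left out the log2 fold change ran from -1.004 to 2.51 for *ple*, -0.53 to 0.87 for *Tdc2*, -0.32 to 0.94 for *Trh*, -0.32 to 0.40 for *Tbh*, -0.20 to 1.24 for *Vmat*, -0.39 to 0.84 for *Dop1R1* and -0.17 to 0.52 for *Dop2R*. It kept its sign for *Ddc*, *SerT* and *DAT*. The log2 ratio differences between labels ran from -1.07 to 1.08 for *ple* over *Ddc*, -2.47 to 1.55 for *DAT* over *ple*, -0.37 to 1.56 for *SerT* over *Trh*, -1.04 to 0.94 for *Tbh* over *Tdc2*, -1.77 to 1.01 for *Trh* over *ple* and -0.22 to 0.32 for *Dop1R1* over *Dop2R*. Where 1 library was left in an arm, it was assumed to vary like the others.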

Other observations

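*amd*, a decarboxylase-related gene of the cuticle, was at 0.639 and 0.366 CPM in *white*-labelled replicates 1 and 2 and at 1.64 and 3.55 CPM in the *orb2*-labelled ones, and it was the only gene of the 7 tested in the list of amine conjugation and pigment genes with an unadjusted p under 0.05 in edgeR's test (0.0488, adjusted p = 0.9998). *Tdc1*, the tyrosine decarboxylase used mainly outside the nervous system, was at 1.53 and 0 CPM and then at 7.60 and 4.49 CPM, with a log2 fold change of 2.95 (standard error 1.86) that did not pass the test. *e*, which joins dopamine to beta-alanine, was at 18.3 and 22.5 CPM and then at 12.4 and 14.3 CPM, and *b*, which supplies beta-alanine, at 7.34 and 21.8 CPM and then at 9.99 and 4.06 CPM. The 2 groups did not overlap for *amd*, *Tdc1*, *stw* and *e*, and 18.5% and 11.7% of all features lay in the same way above and below.

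Of the transcription factors of serotonergic and dopaminergic neurons, *Fer2* was at 36.2 and 29.6 CPM under the *white* label and 34.4 and 28.6 CPM under the *orb2* label, a log2 fold change of -0.061 (standard error 0.242). *eg*, a factor of serotonin neurons, was at a low level, 0.703 and 0.244 CPM and then at 1.77 and 1.12 CPM. *tup* was at 56.9 to 73.9 CPM. None of the 4 factors listed, with *hkb* as the remaining gene, was called. edgeR's test gave 0 of them an unadjusted p under 0.05. The labels did not overlap, with the *orb2* label higher, for 2 of the 4, *eg* and *hkb*, against 18.5% of all features.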
